A study of Mus musculus with 15 samples.

Results

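Wnt ligands are secreted, lipid-modified proteins, and the transcripts of 10 of them were followed here in mouse small intestinal organoids that carried a SOX9 transgene or a control transgene. The 10 genes, Wnt3, Wnt4, Wnt5a, Wnt6, Wnt7a, Wnt7b, Wnt9a, Wnt9b, Wnt10a and Wnt11, were matched by symbol among the 78298 genes of the count table, and all 10 were listed. They belong to 19 Wnt genes in that table, and the other 9 are described separately. Of the 10, 7 had enough counts to be tested and 3 (Wnt5a, Wnt6 and Wnt11) did not.

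Poly-A RNA was sequenced from 15 libraries, 3 for each of 5 conditions. All organoids were of the C57BL/6J strain, from the small intestine of female mice aged 8 to 16 weeks, were grown in IntestiCult medium and were collected 5 days after seeding, with 6 wells per sample. Every line had received a lentivirus in which a weak ubiquitous L30 promoter drives the transgene together with a puromycin resistance gene, and each line was 1 stable, antibiotic-selected population. The control line Halo-NLS carried a V5-tagged HaloTag with a nuclear localization signal. SOX9-Halo and SOX9-mEGFP carried SOX9 fused to the HaloTag or to the green fluorescent protein mEGFP, and each was sampled while it grew as budding organoids (SOX9-Halo_budding, SOX9-mEGFP_budding) and, at a later passage, as round spheroids (SOX9-Halo_spheroid, SOX9-mEGFP_spheroid). Both spheroid populations had also received a second lentivirus, encoding the histone fusion H2B-mEGFP in SOX9-Halo_spheroid and H2B-mScarletI in SOX9-mEGFP_spheroid. Spheroid shape, later passage and the second lentivirus therefore cannot be told apart. The 3 replicates of a condition are samples of 1 line, so the p-values measure the spread between such samples.

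Wnt proteins are acylated by Porcupine, carried to the cell surface by Wntless and bind Frizzled receptors with co-receptors of the Lrp, Ror and Ryk families. Binding either stabilizes beta-catenin, which then activates genes together with TCF/LEF factors, or acts through the planar polarity and calcium branches. In the small intestine Wnt3 is made by Paneth cells next to the stem cells at the crypt base, the surrounding stroma supplies further Wnts, and the beta-catenin branch maintains the stem cells.

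Each library held between 28062722 and 40559766 counts on genes (median 33491297). A gene was called when the adjusted p-value was at most 0.01, the fold change at least 2 and the mean normalized count at least 10. Levels are given as counts, as CPM (counts per 1000000 counts of the library, scaled with TMM) or, between genes, as RPKM (the same value per kilobase of exon). Intervals of ratios and the limit of 3 counts that a count of 0 allows cover counting error only.

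The promoters below are shown for 4 of the members whose levels the results turn on: Wnt3 and Wnt9b, which lie next to each other and fell together in spheroids, Wnt10a, which rose in the spheroids of both lines, and Wnt4, which rose in those of the SOX9-Halo line. Each is the 250 bases before the annotated start of the canonical transcript in GRCm39, read 5′ to 3′ on the strand of the gene, with every CpG in capitals.
Wnt3, chr11:103664726-103664975, plus strand: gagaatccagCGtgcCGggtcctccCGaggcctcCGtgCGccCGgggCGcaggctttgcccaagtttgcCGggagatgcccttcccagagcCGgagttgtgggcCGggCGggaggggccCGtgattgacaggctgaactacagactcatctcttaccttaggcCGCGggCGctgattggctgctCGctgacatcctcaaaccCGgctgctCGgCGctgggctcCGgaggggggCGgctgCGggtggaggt
Wnt9b, chr11:103640656-103640905, minus strand: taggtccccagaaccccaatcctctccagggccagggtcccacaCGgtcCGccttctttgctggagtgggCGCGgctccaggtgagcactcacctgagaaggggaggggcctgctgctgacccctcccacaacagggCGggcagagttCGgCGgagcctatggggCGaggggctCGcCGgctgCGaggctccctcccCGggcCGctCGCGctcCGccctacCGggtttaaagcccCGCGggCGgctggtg
Wnt10a, chr1:74830425-74830674, plus strand: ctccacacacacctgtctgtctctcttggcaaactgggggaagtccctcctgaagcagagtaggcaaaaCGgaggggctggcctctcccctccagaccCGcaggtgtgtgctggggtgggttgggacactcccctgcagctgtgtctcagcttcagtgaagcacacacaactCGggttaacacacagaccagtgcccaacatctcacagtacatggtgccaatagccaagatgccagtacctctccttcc
Wnt4, chr4:137004123-137004372, plus strand: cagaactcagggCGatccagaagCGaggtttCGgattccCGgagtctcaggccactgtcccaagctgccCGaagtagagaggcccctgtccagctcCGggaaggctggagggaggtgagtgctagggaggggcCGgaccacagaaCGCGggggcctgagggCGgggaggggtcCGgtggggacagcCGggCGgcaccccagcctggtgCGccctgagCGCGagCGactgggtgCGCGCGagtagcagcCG

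The windows of Wnt3, Wnt9b and Wnt4 held 22, 20 and 21 CpG and that of Wnt10a 3, against a median of 8 over the promoters of 21757 protein-coding genes. Of the windows of 9 members, 0 held AACAAT (SOX factors), CTTTGA (TCF/LEF), GGAATG (TEAD) or TGANTCA (AP-1) on either strand. These words were present in 9.66%, 14.1%, 12.1% and 6.18% of all promoters, and 64.8% of all promoters held none of the 4, so the lack of a match describes these windows only.

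Sox9, the gene of the transgene, was examined in every library first. It was at 15.3, 22.9 and 9.09 CPM in the 3 Halo-NLS libraries, at 338, 330 and 193 CPM in SOX9-mEGFP_budding and at 39.8, 314 and 204 CPM in SOX9-Halo_budding. The spheroids had 260, 504 and 704 CPM (SOX9-mEGFP_spheroid) and 313, 442 and 441 CPM (SOX9-Halo_spheroid). Every SOX9 library thus lay above every control library, SOX9-Halo_budding replicate 1 by the least. Counts do not separate the transgene from the endogenous gene.

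Some libraries stood apart. Halo-NLS replicate 3 had the most genes with a count (40375, against 24214 in the library with the fewest), and SOX9-mEGFP_budding replicate 3 had the highest Wnt3 count of all libraries (724). Without Halo-NLS replicate 3, and likewise without SOX9-Halo_budding replicate 1, the number of members called stayed as given below in each of the comparisons. Without SOX9-mEGFP_budding replicate 3 it changed in 1 comparison, which is named there.

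The epithelial label was checked against 7 epithelial markers, among them Epcam, Cdh1 and Krt8. All 7 had more than 3 counts in every library, and their summed level was 8980 ± 1710 CPM (SD, n = 3) in Halo-NLS. It was 8095 ± 1233 CPM in SOX9-mEGFP_budding and 12008 ± 143 CPM in SOX9-mEGFP_spheroid. In the SOX9-Halo line it was 6548 ± 952 CPM in SOX9-Halo_budding and 6587 ± 352 CPM in SOX9-Halo_spheroid. The single markers went both ways. From SOX9-Halo_budding to SOX9-Halo_spheroid, Vil1, which encodes the brush border protein villin, fell by 3.15 on the log2 scale (adjusted p = 3.7e-07, edgeR quasi-likelihood test, Benjamini-Hochberg adjusted), and Epcam and the claudin gene Cldn7 had log2 changes of -1.07 (adjusted p = 5.2e-05) and -1.07 (adjusted p = 4.6e-04), both called. The keratin gene Krt18 rose by 1.85 (adjusted p = 1.0e-05) there and by 1.47 (adjusted p = 1.6e-04) in the SOX9-mEGFP line, where it alone of these 4 was called. Of 11 intestinal stromal markers, between 1 and 6 had more than 3 counts per library, with a mean summed level of 2.26 CPM in Halo-NLS, of 1.24 and 0.916 CPM in the budding organoids of the SOX9-mEGFP and SOX9-Halo lines, and of 0.490 and 1.08 CPM in their spheroids. Pdgfrb was the most abundant stromal marker in the control and budding libraries and Col1a1 in the spheroids, while Dcn and Lum were at 0 in all spheroid libraries. Unlike the sum, Pdgfrb was called lower from budding to spheroid in both lines. It went from 0.713 to 0.028 CPM in the SOX9-mEGFP line (adjusted p = 9.8e-05). In the SOX9-Halo line it went from 0.563 to 0.039 CPM (adjusted p = 2.3e-04). Pdgfrb was also called lower than in Halo-NLS in both spheroid conditions. Col1a1 was not called from budding to spheroid in either line. Of 6 immune markers 0 to 5 had more than 3 counts. Their summed level was 2.32 CPM in Halo-NLS, 3.76 and 1.79 CPM in the budding organoids of the SOX9-mEGFP and SOX9-Halo lines, and 0.718 and 0.0902 CPM in their spheroids. Outside SOX9-Halo_spheroid, Itgam was the most abundant of these markers in every library but Halo-NLS replicate 3. In that library it was Cd3e, 5 of the 6 markers had more than 3 counts, and the sum was 3.52 CPM. Itgam and Lyz2 were called lower from budding to spheroid in both lines. Itgam had a log2 change of -2.31 (adjusted p = 8.3e-04) in the SOX9-mEGFP line. Lyz2 was at least 19.4-fold lower in the SOX9-Halo line (adjusted p = 2.4e-05). The 6 endothelial and neural markers summed to 2.25 CPM in Halo-NLS, to 7.12 and 25.1 CPM in the budding organoids of the SOX9-mEGFP and SOX9-Halo lines, and to 24.3 and 0.614 CPM in their spheroids. Nearly all of the higher sums came from S100b, a glial marker, which was called higher than in Halo-NLS in SOX9-Halo_budding (log2 change 4.34, adjusted p = 0.0011) and SOX9-mEGFP_spheroid (4.33, adjusted p = 8.3e-05) and called lower from SOX9-Halo_budding to SOX9-Halo_spheroid (-5.59, adjusted p = 1.1e-05). Sox10, another glial marker, had at most 2 counts in any library. The part of S100b-expressing, stromal or immune cells in the levels of the ligands was not tested.

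The set of Wnt genes that was transcribed differed between the control and budding organoids on one side and the spheroids on the other. Wnt3 and, far below it, Wnt9b made up nearly all Wnt ligand transcripts in the former. In spheroids of both lines Wnt3 was near or at 0, Wnt9b was at 0, and Wnt7b, Wnt10a and Wnt7a were present, joined by Wnt4 in the SOX9-Halo line alone.

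Wnt3 (ENSMUSG00000000125; GRCm39 chr11:103664976-103708853, plus strand) is the Paneth cell ligand that sustains intestinal stem cells. It had 187, 315 and 386 counts in Halo-NLS, 237, 312 and 724 in SOX9-mEGFP_budding and 234, 233 and 161 in SOX9-Halo_budding. In SOX9-mEGFP_spheroid it had 8, 5 and 2 counts, and in SOX9-Halo_spheroid 0, 0 and 0. No spheroid library overlapped any other library, and the 3 SOX9-Halo_spheroid libraries were below all others. Scaled, this was 10.8 ± 3.58, 11.7 ± 4.46, 5.66 ± 1.04 and 0.139 ± 0.0778 CPM (SD, n = 3 each) in the first 4 conditions.

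In SOX9-mEGFP_spheroid, Wnt3 fell by 6.35 on the log2 scale (SE 0.490) against SOX9-mEGFP_budding (adjusted p = 1.0e-06), and its log2 change against Halo-NLS was -6.24 (SE 0.489) (adjusted p = 7.0e-07, edgeR quasi-likelihood test, Benjamini-Hochberg adjusted, as for all adjusted p-values here). In SOX9-Halo_spheroid it was at least 190.5-fold lower than in SOX9-Halo_budding (adjusted p = 2.3e-07) and at least 367-fold lower than in Halo-NLS (adjusted p = 9.1e-08), taking 3 counts over the 3 libraries as the limit. Because RNA was taken from whole organoids, fewer cells with Wnt3 and less Wnt3 RNA per cell cannot be told apart.

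Wnt9b (ENSMUSG00000018486; chr11:103618189-103640655, minus strand) is a ligand known from kidney tubule formation and from the intestinal crypt base. Its counts were 7, 27 and 33 in Halo-NLS, 12, 19 and 55 in SOX9-mEGFP_budding and 24, 22 and 32 in SOX9-Halo_budding, and all 6 spheroid libraries were at 0. The groups with and without spheroid shape did not overlap, although the lowest control library had only 7 counts. Against the budding organoids of its own line, Wnt9b was at least 29.7-fold lower in SOX9-mEGFP_spheroid (adjusted p = 4.8e-04) and at least 23.7-fold lower in SOX9-Halo_spheroid (adjusted p = 3.7e-04).

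Wnt3 and Wnt9b are neighbours on chromosome 11, with 24.3 kb between them, and are transcribed away from each other. The next protein-coding genes on the outer sides were not called in either line. Gosr2, a vesicle transport gene, changed by -0.13 (adjusted p = 0.66) in the SOX9-mEGFP line and by -0.33 (adjusted p = 0.14) in the SOX9-Halo line from budding to spheroid on the log2 scale, and Nsf, a membrane fusion gene, by 0.34 (adjusted p = 0.32) and 0.22 (adjusted p = 0.49). Over all tested genes of each member's chromosome, the median log2 change between the spheroids and the control or the budding organoids lay between -0.20 and 0.36. On chromosome 15, which carries Wnt7b, the median over 741 genes was higher in the SOX9-mEGFP line, at 0.37 in SOX9-mEGFP_budding and 0.36 in SOX9-mEGFP_spheroid against Halo-NLS, at -0.49 between SOX9-Halo_budding and SOX9-mEGFP_budding and at -0.42 between SOX9-Halo_spheroid and SOX9-mEGFP_spheroid. Its part in the differences of Wnt7b between the lines was not tested.

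Wnt7b (ENSMUSG00000022382; chr15:85419638-85466674, minus strand), a ligand known from lung, kidney and skin epithelium, was the most abundant member in both spheroid conditions. It had 0, 2 and 1 counts in Halo-NLS, 1, 1 and 6 in SOX9-mEGFP_budding and 1, 0 and 0 in SOX9-Halo_budding. It had 590, 460 and 639 counts in SOX9-mEGFP_spheroid and 3047, 3270 and 3339 in SOX9-Halo_spheroid. The 5 conditions fell into 3 levels with no overlap between them, at most 6 counts, 460 to 639 counts and at least 3047 counts.

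In SOX9-mEGFP_spheroid, Wnt7b rose by 7.64 (SE 0.456) on the log2 scale against SOX9-mEGFP_budding (adjusted p = 3.3e-08). Against Halo-NLS, in which it had 3 counts in all, it was 431-fold higher (95% counting interval 147 to 2093, adjusted p = 2.2e-08). In SOX9-Halo_spheroid it was 2599-fold higher than in Halo-NLS (889 to 12600, adjusted p = 1.5e-09). It was 10610-fold higher than in SOX9-Halo_budding (1904 to 419100, adjusted p = 1.3e-09), a ratio that rests on 1 count in the budding organoids. The lncRNA AU022754 overlaps Wnt7b on the opposite strand and had at most 18 counts in any library. Counting did not use strand, so reads in the overlap cannot be assigned to one of the 2 genes.

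Wnt7a (ENSMUSG00000030093; chr6:91340959-91388460, minus strand), the closest relative of Wnt7b and known from limb patterning and the female reproductive tract, followed it at a lower level. It had 1, 0 and 0 counts in Halo-NLS, 2, 0 and 0 in SOX9-mEGFP_budding and 2, 4 and 2 in SOX9-Halo_budding, against 28, 29 and 21 in SOX9-mEGFP_spheroid and 177, 70 and 87 in SOX9-Halo_spheroid. All spheroid libraries were above all others. Wnt7a was 37.7-fold higher in SOX9-mEGFP_spheroid than in SOX9-mEGFP_budding (10.1 to 317, adjusted p = 4.0e-04) and rose by 5.52 (SE 0.662) on the log2 scale from SOX9-Halo_budding to SOX9-Halo_spheroid (adjusted p = 7.7e-06).

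Wnt10a (ENSMUSG00000026167; chr1:74830675-74844355, plus strand), a ligand of teeth, hair and other skin appendages, rose to overlapping levels in both lines. It had 1, 2 and 5 counts in Halo-NLS, 4, 1 and 1 in SOX9-mEGFP_budding and 0, 0 and 1 in SOX9-Halo_budding. It had 111, 86 and 211 counts in SOX9-mEGFP_spheroid and 122, 102 and 114 in SOX9-Halo_spheroid, and these 2 conditions overlapped while neither overlapped the others. The change was 5.92 (SE 0.627) on the log2 scale between SOX9-mEGFP_spheroid and SOX9-mEGFP_budding (adjusted p = 5.5e-06), and 5.07 (SE 0.602) between SOX9-Halo_spheroid and Halo-NLS (adjusted p = 6.4e-06). Against SOX9-Halo_budding the ratio was 371 (66.2 to 14710, adjusted p = 8.3e-07), again over 1 count.

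Wnt6 lies 5.70 kb from Wnt10a and had at most 8 counts in any library. Cdk5r2, the next protein-coding gene on the other side of Wnt10a at 49.7 kb, went the opposite way and fell in both lines (adjusted p = 3.3e-04 and 2.7e-04). Ppara, a fatty acid receptor gene 152 kb from Wnt7b, had log2 changes of -2.34 (adjusted p = 0.0021) and -5.58 (adjusted p = 2.2e-06) in the SOX9-mEGFP and SOX9-Halo lines, both called.

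Wnt4 (ENSMUSG00000036856; chr4:137004373-137027037, plus strand), known from kidney and ovary development, differed between the 2 spheroid conditions. It had 11, 7 and 21 counts in Halo-NLS, 6, 3 and 5 in SOX9-mEGFP_budding and 11, 7 and 4 in SOX9-Halo_budding. It had 10, 0 and 0 counts in SOX9-mEGFP_spheroid but 672, 440 and 372 in SOX9-Halo_spheroid, above all other libraries. Wnt4 rose by 6.27 (SE 0.750) on the log2 scale from SOX9-Halo_budding to SOX9-Halo_spheroid (adjusted p = 7.6e-06) and by 4.98 (SE 0.697) against Halo-NLS (adjusted p = 3.2e-05). In the SOX9-mEGFP line the difference between spheroids and budding organoids was -0.56 (SE 0.968, adjusted p = 0.74). Against Halo-NLS it was -2.34 (SE 0.847, adjusted p = 0.033), which was not called. It was called by DESeq2 (adjusted p = 0.0066), without the filter on low counts (adjusted p = 4.7e-04) and without SOX9-mEGFP_spheroid replicate 1 (-7.01, adjusted p = 7.2e-04). This library holds all 10 Wnt4 counts of SOX9-mEGFP_spheroid, so both values rest on it, and without it the difference from the budding organoids was -5.25 (adjusted p = 0.019, not called). The values without it are against libraries at 0 and depend on the prior count. Cdc42 and Zbtb40, the protein-coding genes on either side of Wnt4, were not called in either line.

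**Figure D1:**
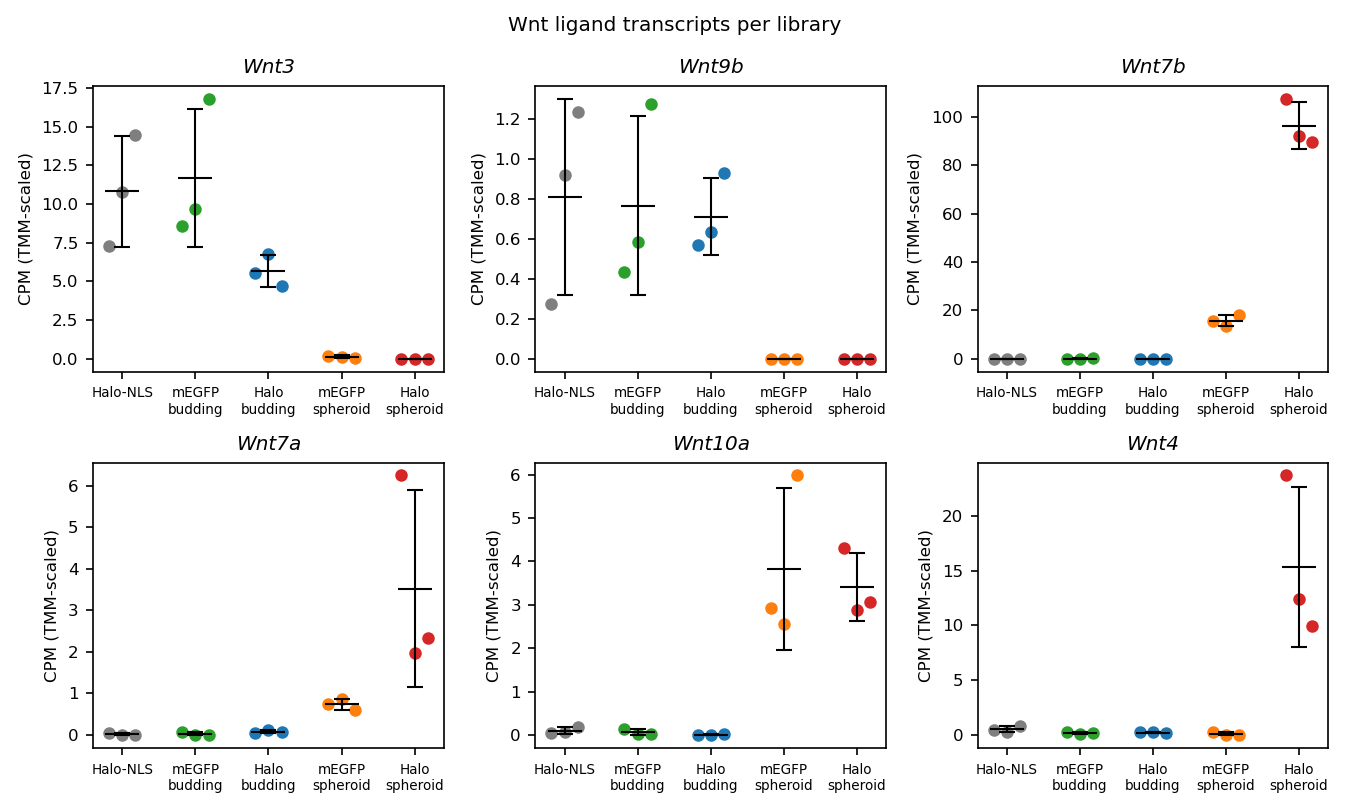
Level of 6 Wnt ligands in CPM on a separate linear axis for each gene, with 1 point per library and a bar at the mean ± SD (n = 3) of each condition. Wnt3 and Wnt9b are seen in control and budding organoids, Wnt7b, Wnt7a and Wnt10a in both spheroid conditions, and Wnt4 at 9.97 to 23.7 CPM in SOX9-Halo_spheroid.

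The remaining 4 members stayed low in all conditions. Wnt9a, a ligand known from joint formation, had between 2 and 15 counts in every library. Its mean normalized count of 8.01 was under the minimum of 10, so it could not be called. In the SOX9-Halo line it had 5, 6 and 4 counts in the budding and 10, 14 and 12 in the spheroid libraries, without overlap, and its difference was 1.37 (SE 0.653, adjusted p = 0.11) on the log2 scale. Wnt5a and Wnt11, best known as ligands of the planar polarity branch, had 32 and 28 counts over the 15 libraries and Wnt6 had 37, with at most 8 in any one library. These 3 genes did not pass the filter on low counts, so none of their differences was tested. Wnt5a had 7, 1 and 3 counts in SOX9-mEGFP_budding and 1, 0 and 0 in SOX9-mEGFP_spheroid, 11.4-fold lower (counting interval 1.65 to 489.7) and without overlap in CPM. In the SOX9-Halo line it had 1, 6 and 2 counts in the budding and 1, 0 and 1 in the spheroid libraries, which overlapped. Wnt11 was at 0 in all 3 SOX9-Halo_budding libraries, at least 3.17-fold lower than in Halo-NLS, where it had 3, 3 and 1 counts. These intervals and limits cover counting error only.

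The 9 other Wnt genes of the table were also low. The highest count of any of them in any library was 24, for Wnt5b. Only Wnt5b and Wnt2b had enough counts to be tested, and 0 of their comparisons were called (edgeR's quasi-likelihood test, with an unadjusted p under 0.05 in 3 of them, and 0 by DESeq2). Wnt2b, with a mean normalized count of 5.97, was under the minimum of 10 and could not be called. Wnt5b had 7, 3 and 5 counts in SOX9-mEGFP_spheroid and 13, 19 and 24 in SOX9-Halo_spheroid (adjusted p = 0.012), a difference that was called with library sizes alone, with only the libraries compared, and without Halo-NLS replicate 1 or SOX9-Halo_budding replicate 3. In the SOX9-Halo line Wnt2b had 23, 4 and 19 counts in the budding and 1, 1 and 3 in the spheroid libraries (adjusted p = 0.031).

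Within a condition, levels per kilobase of exon give the order of the members. In Halo-NLS, Wnt3 stood at 3.44 ± 1.14 RPKM (SD, n = 3) and Wnt9b at 0.179 ± 0.108 RPKM, without overlap. In SOX9-mEGFP_budding they stood at 3.71 ± 1.42 and 0.169 ± 0.0989 RPKM, and in SOX9-Halo_budding at 1.80 ± 0.331 and 0.157 ± 0.0423 RPKM. Wnt9b overlapped the next gene, Wnt4, in Halo-NLS only, and lay above the next gene in both budding conditions.

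In SOX9-mEGFP_spheroid the order was Wnt7b at 3.08 ± 0.431 RPKM, Wnt10a at 0.901 ± 0.442 and Wnt7a at 0.223 ± 0.0409, each without overlap with the next, and then Wnt3 at 0.0442 RPKM. In SOX9-Halo_spheroid it was Wnt7b at 18.8 ± 1.89 RPKM, Wnt4 at 3.04 ± 1.45, Wnt7a at 1.07 ± 0.720, Wnt10a at 0.803 ± 0.183 and Wnt9a at 0.0910 ± 0.00931. Of these neighbours only Wnt7a and Wnt10a overlapped. Lengths of coding sequence in place of exons changed the rank of 0 of the 15 levels that rest on more than 30 counts.

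As a share of the summed RPKM of the 10 members, Wnt3 was 88.8% (87.4% to 90.4% over the 3 libraries) in Halo-NLS, 91.0% (89.1% to 92.7%) in SOX9-mEGFP_budding and 85.6% (82.3% to 87.6%) in SOX9-Halo_budding. In the spheroids Wnt7b took the place at the top, with 71.1% (66.7% to 73.6%) in SOX9-mEGFP_spheroid and 79.6% (73.1% to 83.2%) in SOX9-Halo_spheroid. The second share was Wnt10a in SOX9-mEGFP_spheroid (19.9%) and Wnt4 in SOX9-Halo_spheroid (12.4%).

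The summed level of all 10 members was 12.9 ± 4.56 CPM in Halo-NLS, 13.2 ± 4.76 in SOX9-mEGFP_budding and 6.95 ± 1.05 in SOX9-Halo_budding (SD, n = 3 each). It was 21.0 ± 3.98 CPM in SOX9-mEGFP_spheroid and 119 ± 20.1 CPM in SOX9-Halo_spheroid. The SOX9-Halo_spheroid libraries, at 105 to 142 CPM, did not overlap any others. The SOX9-mEGFP_spheroid libraries began at 17.6 CPM and overlapped SOX9-mEGFP_budding, which reached 18.7 CPM.

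**Figure D2:**
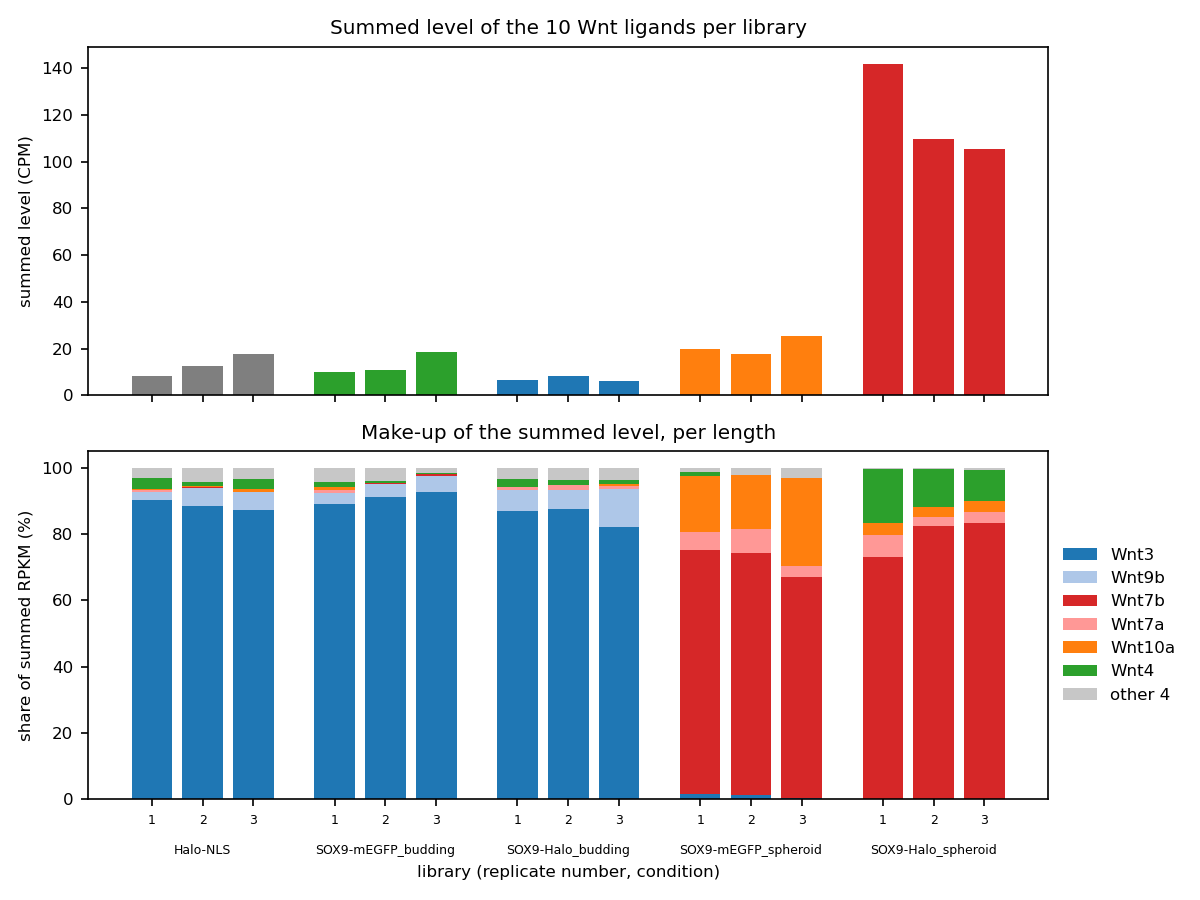
Top, summed level of the 10 Wnt ligands in CPM for each library. Bottom, share of each ligand in the summed RPKM of the 10 in percent, with Wnt3 leading in all control and budding libraries (82.3% to 92.7%) and Wnt7b in all spheroid libraries (66.7% to 83.2%).

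The 5 conditions were compared in 8 pairs and in 1 contrast of the 2 lines, all from 1 fit to the 15 libraries. Of the 10 members, 0 were called between SOX9-mEGFP_budding and Halo-NLS, where 1.99% of the 17560 genes tested were called higher and 0.763% lower. Likewise 0 were called between SOX9-Halo_budding and Halo-NLS (2.49% of all genes higher, 1.26% lower) and 0 between SOX9-Halo_budding and SOX9-mEGFP_budding (0.29% higher, 0.165% lower). At an unadjusted p under 0.05 these 3 comparisons had 1, 2 and 2 members, and DESeq2 called 0 in each. Wnt3, the most abundant member there, had a log2 difference of -1.05 (SE 0.361, adjusted p = 0.31) between SOX9-Halo_budding and SOX9-mEGFP_budding and of -0.94 (SE 0.361, adjusted p = 0.082) between SOX9-Halo_budding and Halo-NLS, with no overlap of the libraries in CPM in either. With 1 count in SOX9-Halo_budding against 8, Wnt10a was 10.9-fold lower there than in Halo-NLS (counting interval 1.46 to 483, adjusted p = 0.075), and, with 1 count against 8, Wnt7b was 8.62-fold lower than in SOX9-mEGFP_budding (1.16 to 383, adjusted p = 0.30), in both cases without overlap and not called. Also without overlap and not called, Wnt4 had a log2 difference of -1.78 (SE 0.809, adjusted p = 0.13) between SOX9-mEGFP_budding (14 counts) and Halo-NLS (39 counts), and Wnt7a was 5.88-fold higher in SOX9-Halo_budding than in Halo-NLS (counting interval 0.788 to 261, adjusted p = 0.22).

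Against Halo-NLS, 3 members were called higher and 2 lower in SOX9-mEGFP_spheroid, beside 15.3% of all genes higher and 12.1% lower. In SOX9-Halo_spheroid 4 were called higher and 2 lower, beside 13.6% and 15.3% of all genes. The control libraries are the same in both. From budding to spheroid within a line, 3 members were called higher and 2 lower in SOX9-mEGFP (8.53% and 7.88% of all genes), and 4 higher and 2 lower in SOX9-Halo (10.5% and 14.7% of all genes). These last comparisons share no libraries. The members called were Wnt3 and Wnt9b lower and Wnt7a, Wnt7b and Wnt10a higher in each of the 4 comparisons, with Wnt4 higher in the 2 that involve SOX9-Halo_spheroid. With library sizes in place of TMM, the median log2 change of all tested genes moved from 0.03 to 0.29 in SOX9-mEGFP_spheroid against Halo-NLS, and the genes called from 2687 higher and 2132 lower to 3334 and 1499. In SOX9-Halo_spheroid against Halo-NLS they moved from 2391 and 2678 to 3103 and 2227, while the members called stayed at 5 and 6.

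Between the 2 spheroid conditions, 3 members were higher and 1 lower in SOX9-Halo_spheroid, beside 3.59% of all genes higher and 9.57% lower. Wnt4 was higher by 7.32 (SE 0.815, adjusted p = 9.3e-06), Wnt7b by 2.61 (SE 0.314, adjusted p = 2.0e-05) and Wnt7a by 2.25 (SE 0.512, adjusted p = 0.0044) on the log2 scale, and Wnt3 was at least 4.74-fold lower (adjusted p = 0.0044). Without SOX9-mEGFP_spheroid replicate 1 the fitted value of Wnt4 was 11.97 (adjusted p = 3.5e-06). The calls of Wnt3 and Wnt7a were lost when some single libraries were left out. Wnt3 lost its call (adjusted p 0.011 to 0.016) without any 1 of the spheroid libraries other than SOX9-mEGFP_spheroid replicate 3, while its fitted log2 difference, which depends on the prior count, stayed between -4.81 and -5.29 (-5.27 with all libraries). Wnt7a lost it without any 1 of the SOX9-mEGFP_spheroid libraries, with a difference of 2.12 to 2.38 (adjusted p 0.017 to 0.024), and without SOX9-Halo_spheroid replicate 1, where the difference went to 1.55 (adjusted p = 0.034), so that 2 of the 4 calls, Wnt4 and Wnt7b, were left without SOX9-mEGFP_spheroid replicate 1 or 2 or SOX9-Halo_spheroid replicate 1. Wnt10a differed by -0.17 (SE 0.427, adjusted p = 0.82).

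The budding-to-spheroid change itself was compared between the lines with an interaction term. Line, tag, stage of the spheroids and second lentivirus go together in this contrast and cannot be told apart. Here 2 members were called higher and 0 lower, beside 1.81% of all genes higher and 5.56% lower. The change of Wnt4 was larger in the SOX9-Halo line by 6.83 (SE 1.24, adjusted p = 0.0015) and that of Wnt7b by 5.26 (SE 0.964, adjusted p = 0.0017) on the log2 scale. The value for Wnt7b rests on 1 count in SOX9-Halo_budding and 8 in SOX9-mEGFP_budding, and without SOX9-mEGFP_budding replicate 3, which holds 6 of these 8, it was 4.23 (adjusted p = 0.080) and no longer called. Without SOX9-mEGFP_spheroid replicate 1 the value for Wnt4 was 11.46 (adjusted p = 8.4e-05), again against libraries at 0. For Wnt3 the difference was -4.23 (SE 1.26, adjusted p = 0.044), not called. This value depends on the prior count, because Wnt3 was at 0 in SOX9-Halo_spheroid.

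Wnt3 was next set beside the markers of Paneth cells, the crypt cells that make it. All 8 Paneth markers had more than 3 counts in every control and budding library, 5 to 7 of them in SOX9-mEGFP_spheroid and 3 to 4 in SOX9-Halo_spheroid. Their summed level was 1705 ± 239 CPM in Halo-NLS, 1609 ± 461 in SOX9-mEGFP_budding and 815 ± 72.3 in SOX9-Halo_budding (SD, n = 3 each). In SOX9-mEGFP_spheroid the sum was 1265 ± 128 CPM, nearly all of it from Mmp7, the matrix metalloproteinase that processes Paneth cell defensins, and in SOX9-Halo_spheroid it was 4.30 ± 1.41 CPM, mostly from Itln1.

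The single markers did not all follow the sum. Lyz1, the Paneth cell lysozyme and the most abundant marker in most control and budding libraries, stood at 709 CPM in Halo-NLS, went from 559 to 13.8 CPM in the SOX9-mEGFP line and from 380 to 0.505 CPM in the SOX9-Halo line. It fell in both lines, with log2 changes of -5.34 (SE 0.421, adjusted p = 4.0e-07) and -9.52 (SE 0.521, adjusted p = 5.1e-09). Mmp7 went opposite ways, rising by 5.26 (adjusted p = 1.5e-08) in the SOX9-mEGFP line to 1245 CPM and falling in the SOX9-Halo line (log2 change -3.67, adjusted p = 1.4e-07). Itln1 (intelectin) and Ang4 (an antimicrobial ribonuclease) fell in both lines, Ang4 to 0.0546 and 0.0179 CPM. Wnt3 thus moved with Lyz1, Itln1 and Ang4 in both lines and with Mmp7 in the SOX9-Halo line only, and the part of Paneth cell number in its change was not tested. Levels of Defa genes, which are near-identical copies, are uncertain because only unique alignments were counted.

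**Figure D3:**
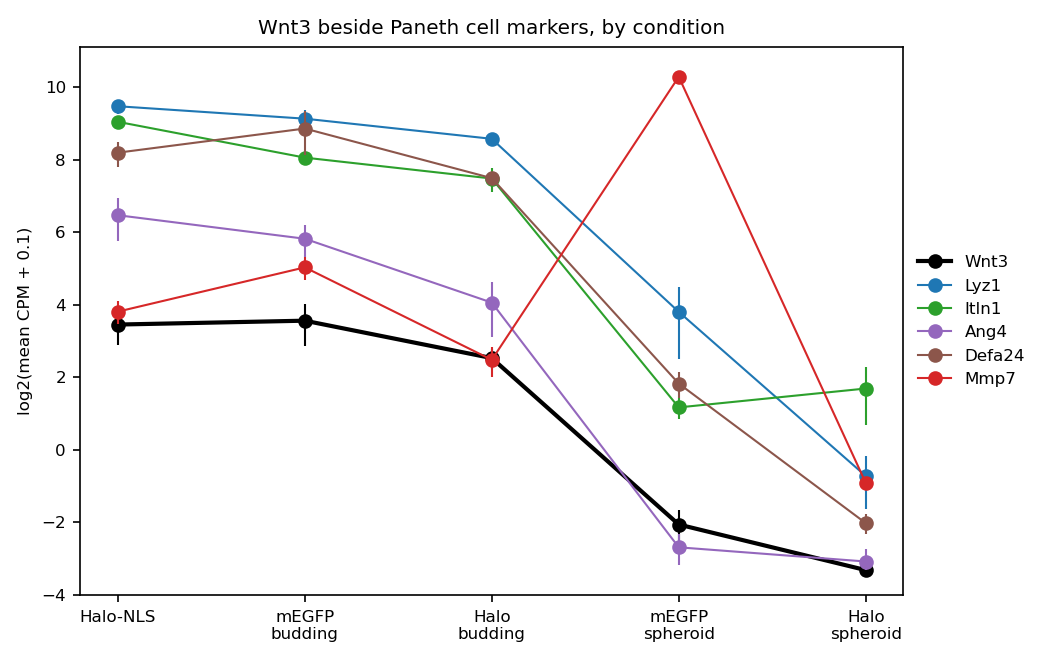
Level of Wnt3 and 5 Paneth cell markers across the 5 conditions, as log2(mean CPM + 0.1), with vertical bars for ± SD over 3 libraries and lines only to guide the eye. Wnt3, Lyz1, Itln1, Ang4 and Defa24 are low in both spheroid conditions, whereas Mmp7 reaches 1245 CPM in SOX9-mEGFP_spheroid.

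The partners of the ligands were taken from 8 lists of pathway genes, of which 60 genes were tested. From budding to spheroid, 12 of the 60 (20%) were called in the SOX9-mEGFP line, beside 16.4% of all genes, and 28 (46.7%) in the SOX9-Halo line, beside 25.2% of all genes. The share in the SOX9-mEGFP line was thus near that of all genes. The 9 genes called in both had the same direction in both. Medians of each list are given beside the median over all tested genes, which was -0.04 in the SOX9-mEGFP line and -0.08 in the SOX9-Halo line on the log2 scale. Without any 1 library, 8 to 13 genes were called in the SOX9-mEGFP line and 23 to 29 in the SOX9-Halo line.

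Wls, which is needed for Wnt release, rose in the spheroids of both lines. Of the 3 genes listed for lipidation, release and inactivation of Wnts, 1 was called higher in the SOX9-mEGFP line (median 0.67) and 3 in the SOX9-Halo line (median 2.19), and 0 lower. Wls encodes the carrier Wntless and stood at 17.4 ± 4.15 CPM in Halo-NLS and went from 41.9 ± 4.91 to 145 ± 16.6 CPM in the SOX9-mEGFP line and from 43.9 ± 3.38 to 201 ± 44.5 CPM in the SOX9-Halo line (SD, n = 3). It rose by 1.79 (SE 0.213, adjusted p = 1.6e-05) and 2.19 (SE 0.216, adjusted p = 1.0e-06) from budding to spheroid. Wls was already called higher than in Halo-NLS in both budding conditions, as it was in both spheroid conditions. Porcn, the acyltransferase Porcupine, rose by 1.69 (SE 0.252, adjusted p = 6.4e-05) in the SOX9-Halo line and differed by 0.67 (adjusted p = 0.057) in the other. Its rise in the SOX9-Halo line started from a low level. Porcn was called lower in SOX9-Halo_budding than in Halo-NLS and was not called between SOX9-Halo_spheroid and Halo-NLS. Notum, an enzyme that removes the lipid and so inactivates Wnts, rose by 4.45 (SE 0.486, adjusted p = 3.0e-06) in the SOX9-Halo line and differed by -1.19 (adjusted p = 0.062) in the SOX9-mEGFP line, and this difference between the lines was itself called (5.64, SE 0.653, adjusted p = 3.2e-05).

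Frizzled receptors changed in both directions. Of 10 listed, 9 were tested, with 2 called higher and 1 lower in the SOX9-mEGFP line (median 0.41) against 2 and 3 in the SOX9-Halo line (median 0.29). Fzd6 rose in both, by 2.17 (adjusted p = 1.9e-05) and 3.23 (adjusted p = 2.4e-07), to 30.1 and 71.4 CPM in SOX9-mEGFP_spheroid and SOX9-Halo_spheroid. Fzd3 rose by 4.03 (adjusted p = 8.8e-07) and 2.10 (adjusted p = 3.7e-05). Fzd5 stood at 101 and 130 CPM in the budding organoids of the SOX9-mEGFP and SOX9-Halo lines. It fell in SOX9-Halo_spheroid to 29.0 CPM (log2 change -2.17, SE 0.240, adjusted p = 3.5e-06). In SOX9-mEGFP_spheroid it differed by -0.76 (adjusted p = 0.022). Fzd1 and Fzd8 were called lower in the SOX9-Halo line, with log2 changes of -5.75 (adjusted p = 1.3e-05) and -2.78 (adjusted p = 8.5e-05), against 0.41 and -0.63 in the other line, and for Fzd1 the difference between the lines was called (-6.16, adjusted p = 2.4e-04). Against Halo-NLS, 2 of the 9 were called higher in SOX9-mEGFP_budding and 4 in SOX9-Halo_budding (Fzd3, Fzd5, Fzd6 and Fzd8), with 0 lower in either. In SOX9-mEGFP_spheroid 3 were called higher, Fzd3 and Fzd6 among them, and 0 lower, beside 15.3% and 12.1% of all genes. In SOX9-Halo_spheroid 4 were called higher, Fzd2, Fzd3 and Fzd6 among them, beside 13.6% of all genes. Fzd1 and Fzd5 were called lower there, beside 15.3% of all genes, and Fzd8 was not called. Fzd2 fell in the SOX9-mEGFP line (log2 change -1.56, adjusted p = 0.0092), a call that was lost with library sizes alone (adjusted p = 0.012) and without any 1 of the 12 SOX9 libraries (adjusted p up to 0.039).

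Among the 8 co-receptors and alternative receptors, 5 were tested, with 1 called lower in the SOX9-mEGFP line (median 0.21), against 1 higher and 2 lower among SOX9-Halo libraries (median -0.97). Lrp5, a co-receptor of the beta-catenin branch, rose in the SOX9-Halo line by 2.14 (adjusted p = 3.4e-05) to 517 ± 25.2 CPM. Ror2, a receptor of Wnt5a, fell there from 34.1 to 3.54 CPM (log2 change -3.27, SE 0.375, adjusted p = 5.0e-06), and the difference between the lines was called (-2.82, adjusted p = 0.0012). Ptk7, a polarity receptor, fell to at most 1 count per library in all spheroids, and was called lower in both lines. The call in the SOX9-mEGFP line was lost without SOX9-mEGFP_budding replicate 3 or SOX9-mEGFP_spheroid replicate 2 or 3 (adjusted p 0.016 to 0.017), and in both lines without SOX9-Halo_budding replicate 2, where its mean count was under 10. Reck and Adgra2, which form the receptor complex that recognizes Wnt7a and Wnt7b, were not tested, with at most 18 and 9 counts in any library.

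Secreted inhibitors had few counts. Of 13 listed, only Wif1 was tested, and its mean normalized count of 8.78 was under the minimum for a call. It was at 0 in all 6 spheroid libraries against 0.608 ± 0.447 CPM in SOX9-mEGFP_budding and 0.247 ± 0.113 CPM in SOX9-Halo_budding (SD, n = 3).

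The list of R-spondins, their receptors and the ligases they control had 5 of 9 genes tested. In the SOX9-mEGFP line 0 were called higher and 1 lower (median 0.16), and for SOX9-Halo the counts were 1 and 2 (median -1.71). Lgr5 and Lgr4, the R-spondin receptors, fell in the SOX9-Halo line, with log2 changes of -2.04 (SE 0.541, adjusted p = 0.0068) and -1.71 (SE 0.304, adjusted p = 3.1e-04), the former not called with library sizes alone (adjusted p = 0.011) or without any 1 of 5 libraries of this line (all but SOX9-Halo_budding replicate 1, adjusted p 0.015 to 0.034). Against Halo-NLS, Lgr4 was called higher in both budding conditions, and Lgr4 and Lgr5 were called higher in SOX9-mEGFP_spheroid. Neither receptor was called between SOX9-Halo_spheroid and Halo-NLS. Rnf43, a ligase that removes Frizzled receptors, rose from budding to spheroid in the SOX9-Halo line by 1.30 (adjusted p = 8.3e-04). Rspo4 fell in the SOX9-mEGFP line to 1 count over 3 libraries (77.6-fold, counting interval 13.5 to 3104, adjusted p = 0.0030), a call lost without SOX9-mEGFP_budding replicate 1 or any 1 of the SOX9-mEGFP_spheroid libraries (adjusted p 0.012 to 0.017). In SOX9-Halo_spheroid, Rspo4 was at least 8.80-fold lower than in SOX9-Halo_budding, which was not called. Against Halo-NLS it was called lower in both spheroid conditions, by at least 67.7-fold in SOX9-Halo_spheroid.

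Few signal transducers of the beta-catenin branch were called from budding to spheroid. Of 15 tested, 0 were called in the SOX9-mEGFP line and 1, Tcf7, in the SOX9-Halo line, where it rose by 1.88 (adjusted p = 0.0014). In the SOX9-mEGFP line 4 of the 15 had an unadjusted p under 0.05 in edgeR's quasi-likelihood test, and DESeq2 called 0. Against Halo-NLS, 3 of the 15 were called higher and 1 lower in SOX9-mEGFP_spheroid, beside 15.3% and 12.1% of all genes. In SOX9-Halo_spheroid 0 were called higher and 1 lower, beside 13.6% and 15.3% of all genes. Ctnnb1, which encodes beta-catenin and was the most abundant of them, differed by 0.17 (SE 0.175) and -0.13 (SE 0.175) on the log2 scale from budding to spheroid in the SOX9-mEGFP and SOX9-Halo lines.

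Cd44 and Ccnd1 (cyclin D1) rose in spheroids of both lines, and other target and feedback genes of beta-catenin were called in the SOX9-Halo line. Of 15 tested, 2 were called higher and 0 lower in the SOX9-mEGFP line (median 0.16), against 7 and 3 in the SOX9-Halo line (median 1.29). Compared with Halo-NLS, 5 were called higher and 0 lower in SOX9-mEGFP_spheroid, beside 15.3% and 12.1% of all genes. In SOX9-Halo_spheroid 7 were called higher and 1 lower, beside 13.6% and 15.3% of all genes. Ccnd1 rose by 2.11 (adjusted p = 2.6e-04) and 3.55 (adjusted p = 1.6e-06), and Cd44, a surface protein of stem cells, by 3.26 (adjusted p = 1.2e-04) and 1.78 (adjusted p = 0.0055). Nkd1, a feedback inhibitor, rose in the SOX9-Halo line by 7.54 (SE 0.874, adjusted p = 5.4e-06) from 0.700 ± 0.421 to 129 ± 40.7 CPM, against 1.51 (adjusted p = 0.13) in the SOX9-mEGFP line, a difference of 6.03 between the lines (SE 1.04, adjusted p = 0.0010). Tnfrsf19 (also known as Troy) rose in the SOX9-Halo line by 6.48 (adjusted p = 9.9e-06). In the SOX9-mEGFP line it differed by 1.77, not called. Like Cd44 and Ccnd1, it was called higher than in Halo-NLS in both spheroid conditions. Sp5, a target in many tissues, went the other way and was 189-fold lower in SOX9-Halo_spheroid than in SOX9-Halo_budding (counting interval 33.6 to 7512, adjusted p = 1.3e-04). Axin2, the target most often used as a readout, was not called, at 1.29 (SE 0.534, adjusted p = 0.067) in the SOX9-Halo line and -0.15 (SE 0.526, adjusted p = 0.88) in the SOX9-mEGFP line. The genes of this list that moved most in the SOX9-Halo line thus went in both directions. In that line the call of Cd44 was lost with library sizes alone (adjusted p = 0.013), in a fit of the compared libraries alone (adjusted p = 0.019) and without replicate 1 or 2 of SOX9-Halo_budding or replicate 2 or 3 of SOX9-Halo_spheroid (0.019 to 0.025), and that of Ephb3 without SOX9-Halo_budding replicate 1 or SOX9-Halo_spheroid replicate 2 or 3 (0.013 to 0.018).

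Of the planar polarity and calcium genes, 11 of 12 were tested, with 4 called higher and 0 lower in the SOX9-mEGFP line (median 0.75) against 3 and 3 in the SOX9-Halo line (median 0.35). Celsr1, a polarity cadherin, rose in both, by 4.88 (SE 0.527, adjusted p = 6.7e-06) and 4.15 (SE 0.521, adjusted p = 1.2e-05). Its paralog Celsr3 went the other way. It was 41.6-fold lower in SOX9-Halo_spheroid than in SOX9-Halo_budding (counting interval 13.9 to 204), which was called. In the SOX9-mEGFP line it differed by -2.71, not called. Relative to Halo-NLS, 6 genes of this list were called higher and 1 lower in SOX9-mEGFP_spheroid, beside 15.3% and 12.1% of all genes. In SOX9-Halo_spheroid 4 were called higher and 2 lower, beside 13.6% and 15.3% of all genes. Celsr3 was among the lower genes in both, and Celsr1, Vangl1 and Prickle1 were among the higher genes in both. The paralogs Vangl1 and Vangl2, membrane proteins of the polarity complex, parted. Vangl1 rose by 1.76 (adjusted p = 1.8e-04) and 2.48 (adjusted p = 4.3e-06), while Vangl2 fell in the SOX9-Halo line to 0.260 ± 0.0640 CPM (log2 change -5.66, SE 0.362, adjusted p = 1.9e-08) and differed by -0.72 (adjusted p = 0.067) in the SOX9-mEGFP line. The difference between the lines was called for Vangl2 (adjusted p = 3.2e-06). The call of Camk2d in the SOX9-mEGFP line was lost without replicate 2 or 3 of either condition (adjusted p 0.012 to 0.019). In the SOX9-Halo line the call of Prickle1 was lost without SOX9-Halo_budding replicate 1 or any 1 of the spheroid libraries (0.012 to 0.024), and that of Daam2 without SOX9-Halo_budding replicate 2 or 3 or any 1 of the spheroid libraries (0.013 to 0.018). With the replicate block within this line, neither gene was called (adjusted p = 0.012 for Prickle1 and 0.019 for Daam2), nor without the filter on low counts (0.029 and 0.085) or in a fit of the compared libraries alone.

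**Figure D4:**
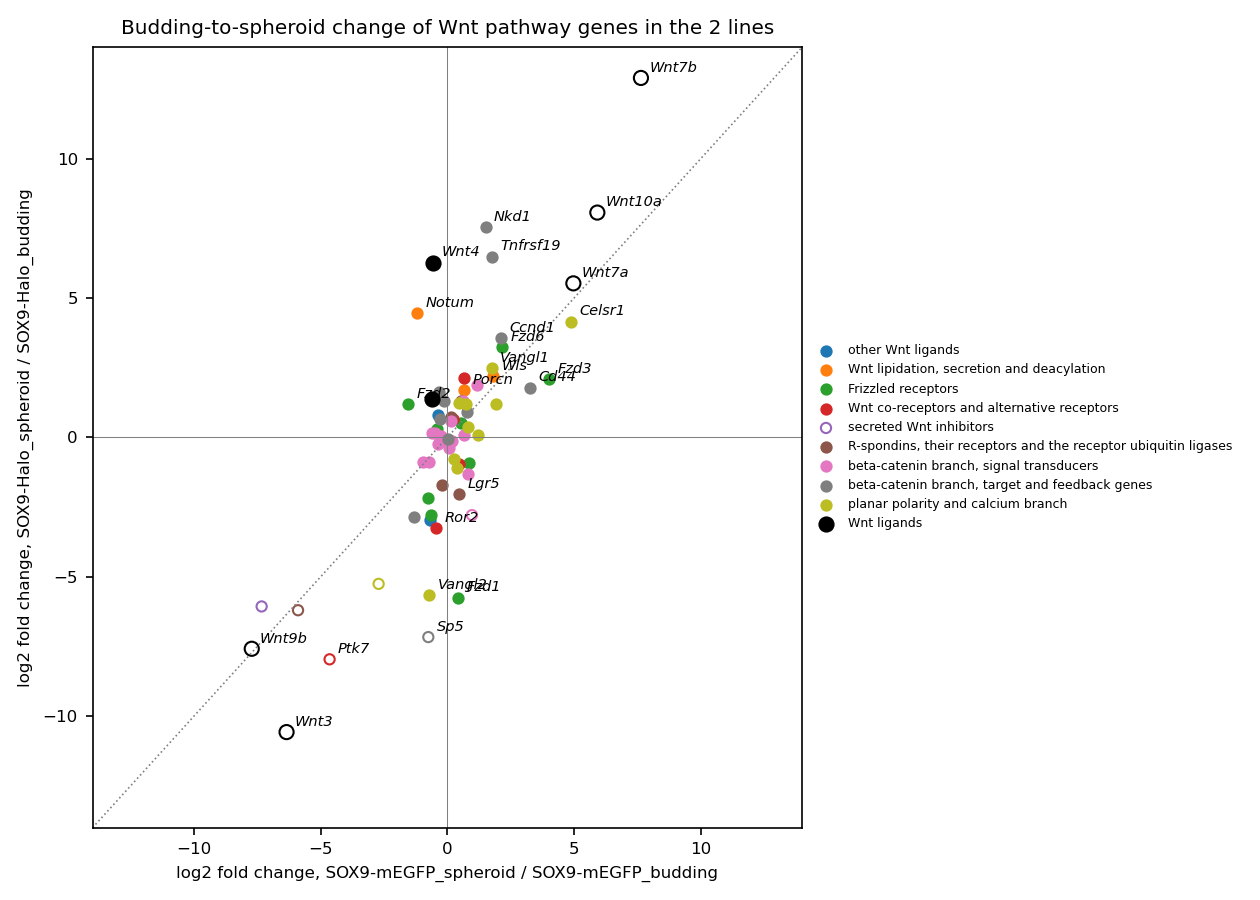
Log2 change from budding to spheroid organoids in the SOX9-mEGFP line (horizontal) and the SOX9-Halo line (vertical) for 69 tested Wnt ligands and pathway genes, with a dotted line where both are equal. Open symbols mark 11 genes with at most 3 counts in one of the conditions, whose fitted values depend on the prior count. Wnt4 (-0.56 and 6.27) and Nkd1 (1.51 and 7.54) lie far above the line and Vangl2 (-0.72 and -5.66) far below it.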

How the data were processed

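The 10 members, the pathway lists and the marker lists were chosen with earlier results of these data known. Per the labels and the study's methods, the authors sequenced poly-A RNA as paired reads, trimmed it with cutadapt 4.5, aligned it to mm39 with STAR and deposited counts per gene made with HTSeq 2.0.2 (union mode, unstranded, unique alignments). Reads on no gene were 1.83% to 6.10% of each library and reads on several genes 9.65% to 13.6%. The deposited normalized table and comparison tables were not used.

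Counts of the 17560 genes that passed filterByExpr were scaled with TMM and fitted with edgeR 4.0.16 in R 4.3.3 (quasi-likelihood test, Benjamini-Hochberg adjustment, common biological coefficient of variation 0.302), with 1 coefficient per condition and 15 libraries. Alternatives included DESeq2 1.42.0 and a replicate block. Gene lengths, positions and promoters came from GRCm39 and GENCODE M39, which held 78168 of the 78298 gene identifiers; 1 member's promoter is not reported here. A group at 0 was set to 3 counts over its 3 libraries, and a group with 1 to 3 counts was given as a ratio with an exact 95% interval. Names were drawn from all members, the 3 most abundant genes of each list and those called in 3 or more pairs of conditions. Not every such gene of the lists is named. Other list genes that are named (Tcf7, Axin2, Ephb3, Daam2, Reck and Adgra2) and the marker genes that are named singly were chosen after their values were seen. The script was tested on simulated data. Same-numbered libraries were correlated (all 3 correlations of deviations from the condition mean over 0.1) in 1 of 10 pairs of conditions. This pair was SOX9-Halo_budding with SOX9-Halo_spheroid (r = 0.471, 0.277 and 0.417 over 8964 genes). With 3 libraries per condition, 1 of 10 pairs does not show that libraries were paired.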

Additional observations from a re-analysis of the deposited data

Results flagged for a closer look

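The budding-to-spheroid change of 2 ligands differed between the lines by the interaction term of edgeR's quasi-likelihood fit. The lines also differed in tag, stage of the spheroids and second lentivirus, which cannot be told apart here. For Wnt4 the change was larger in the SOX9-Halo line by 6.83 on the log2 scale (SE 1.24, adjusted p = 0.0015). All 3 SOX9-Halo_spheroid libraries (372 to 672 counts) were above all SOX9-Halo_budding libraries (4 to 11 counts), while SOX9-mEGFP_spheroid (0 to 10 counts) overlapped SOX9-mEGFP_budding (3 to 6 counts). For Wnt7b the change was larger in the SOX9-Halo line by 5.26 (SE 0.964, adjusted p = 0.0017), although it rose in both lines. Its budding levels were at most 6 counts per library, so the size of this difference rests on few counts. With 3 libraries per condition no library was tested as an outlier within its condition.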

How the results depend on the processing

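The 28 calls of members were recomputed under up to 26 alternatives, which gave 703 values: 693 kept direction and call, 10 lost the call and 0 reversed. Wnt4 in SOX9-mEGFP_spheroid against Halo-NLS, not called, was called lower by DESeq2, without the filter on low counts, at an adjusted p of at most 0.05 and without SOX9-mEGFP_spheroid replicate 1. Leaving out each library in turn gave 2 to 4 members called between the spheroid conditions (4 with all libraries) and 1 to 2 for the difference between the lines (2 with all). Where only the libraries compared were fitted, 4, 5 and 3 members in place of 5, 6 and 4 were called in SOX9-mEGFP_spheroid and SOX9-Halo_spheroid against Halo-NLS and between the spheroid conditions, because Wnt9b (the first 2) and Wnt3 (the last) then fell under the filter on low counts. Of 68 calls of pathway and Paneth genes, 46 were kept in every alternative and 0 of 1731 values reversed. For the difference between the lines, 10 pathway genes were called, 19 without the filter and 6 without SOX9-mEGFP_spheroid replicate 2, SOX9-Halo_spheroid replicate 2 or SOX9-Halo_spheroid replicate 3.

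Same-numbered libraries of the SOX9-Halo line were correlated, which does not show that they were paired. In a fit of this line alone, a replicate block, chosen after seeing the data, called 6 members as before. It called 1852 genes higher and 2461 lower, against 1698 and 2394 in the same fit without the block. The fit of all 15 libraries gave 1849 and 2580. Prickle1 and Daam2 were not called in the fit of this line alone, with or without the block. The replicate block over all 15 libraries left the number of members called in each comparison at 0, 0, 5, 6, 5, 6, 0, 4 and 2, and changed no member's call.

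Counts over all genes moved most where few were called. Between SOX9-mEGFP_budding and Halo-NLS, 350 higher and 134 lower became 620 and 108 with library sizes alone, 1730 and 261 without the filter, 926 and 271 by DESeq2, 65 and 37 with only the libraries compared, and 143 to 1839 and 72 to 345 without 1 library. Between SOX9-Halo_budding and Halo-NLS, 438 and 221 became 1069 and 109, 1933 and 424, 1176 and 426, 5 and 0, and 125 to 1986 and 60 to 384. Between the budding conditions, 51 and 29 became 116 and 164 without the filter, 92 and 104 by DESeq2, 17 and 2 with only the libraries compared, and at least 8 lower without 1 library. Between the spheroid conditions, 630 higher became 408 without SOX9-mEGFP_spheroid replicate 2. For the difference between the lines, 318 higher became 488 by DESeq2 and 180 without that library. Looser and stricter thresholds changed the counts by construction. With an adjusted p of at most 0.05 and no fold minimum, the budding conditions against Halo-NLS had 1535 higher and 1019 lower (SOX9-mEGFP) and 1914 and 1290 (SOX9-Halo), the spheroids against Halo-NLS 4185 and 3892 (2687 and 2132 before) and 3723 and 4082 (2391 and 2678 before), SOX9-mEGFP from budding to spheroid 2318 and 2177 (1498 and 1383 before), SOX9-Halo 2929 higher (1849 before), the budding conditions 90 and 87, the spheroid conditions 1354 higher and the difference between the lines 634 and 1495 (318 and 977 before), with 17 pathway genes. With a fold change of at least 4, in the same order, 196 and 68, 203 and 46, 1539 and 1086, 1358 higher, 977 higher and 1109 higher, and 320 higher between the spheroid conditions and 208 higher for the difference, with 7 in place of 12 pathway genes in the SOX9-mEGFP line. The cause of the other shifts was not tested.

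Depth limits Wnt5a, Wnt6 and Wnt11, which were not tested, and Wnt9a and Wnt2b, which were under the minimum count for a call.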

Other observations

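Genes whose pattern over the 15 libraries was most like that of the 4 most abundant members were found by Pearson's r of log2 CPM. The libraries share conditions and depth, and 54 to 845 genes had r above 0.9 with one of these members, so the values are descriptions only. For Wnt3 they were Trp53i11 (0.9913), Ret (0.9898), which encodes a receptor tyrosine kinase, and Ces1b (0.9896), a carboxylesterase gene. For Wnt7b they were a gene without a symbol (ENSMUSG00000131859, 0.9939), Rab34 (0.9935), known from cilium formation, and Aqp5 (0.9915), a water channel of secretory epithelia. For Wnt10a they were Fer1l4 (0.9903), Plaur (0.9883), the urokinase receptor gene, and Gprc5a (0.9855). For Wnt4 the likeness was lower, with Gm26559 (0.9605), the homeobox gene Hoxa7 (0.9583) and the histone deacetylase gene Hdac1 (0.9528).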
